A study of Mus musculus with 2 samples.

Results

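Semaphorins are guidance signals that steer growing axons and migrating cells, and plexins and neuropilins are their receptors. The genes described here are the protein-coding mouse genes whose symbols name a semaphorin of classes 3 to 7, a plexin, or Nrp1 or Nrp2. There are 31 of them, namely 20 semaphorins, 9 plexins and 2 neuropilins, among 43346 Ensembl genes in the tables, of which 21474 are annotated as protein coding. The rule reads symbols and no measured value, although the family was picked for description with earlier results of these data known.

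The tissue was the hindbrain of B6NCrl mouse embryos, male and female pooled, at embryonic day 13.5, per the labels. RNA longer than 200 nt was prepared with the Ambion mirVana method, 10 ng entered each library, spike-in RNAs were added, and a SMARTer Ultra Low kit manual is among the cited protocols. The 2 libraries are numbered as biological replicates 1 and 2; they have different biosample labels and the same donor label, and no perturbation or other group is present. Gene counts totalled 32314725 in replicate 1 and 37772709 in replicate 2. The 31 genes held 59230 of these counts in replicate 1 and 68972 in replicate 2, which is 0.183% of each library.

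Semaphorins bind plexins through a shared fold, the sema domain, and the plexin cytoplasmic domain switches off small GTPases, so that the actin cytoskeleton retracts or turns. Most class 3 semaphorins, which are secreted, need a neuropilin as the ligand-binding partner of an A plexin, whereas semaphorins of classes 4 to 7 are anchored in the membrane and bind plexins directly. In the embryonic hindbrain these signals are known for guiding cranial motor and commissural axons, for neural crest streams and for the migration of cerebellar and precerebellar neurons.

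Nearly the whole family was expressed. A TPM (transcript abundance scaled to a fixed total, a level per length) of 1 or more in both libraries was taken as detected, and 29 of the 31 genes, or 93.5%, reached it. The same was true of 35.4% of all Ensembl genes and of 62.2% of the protein-coding ones. Levels were moderate: the median of the detected members was 15.1 TPM in replicate 1 and 14.2 in replicate 2, against 19.5 and 19.2 for all detected protein-coding genes. The members missing the limit were Sema3g, a secreted semaphorin, and Plxnb3, a B plexin. In whole tissue, few cells with much RNA and many cells with little cannot be told apart.

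**Figure D1:**
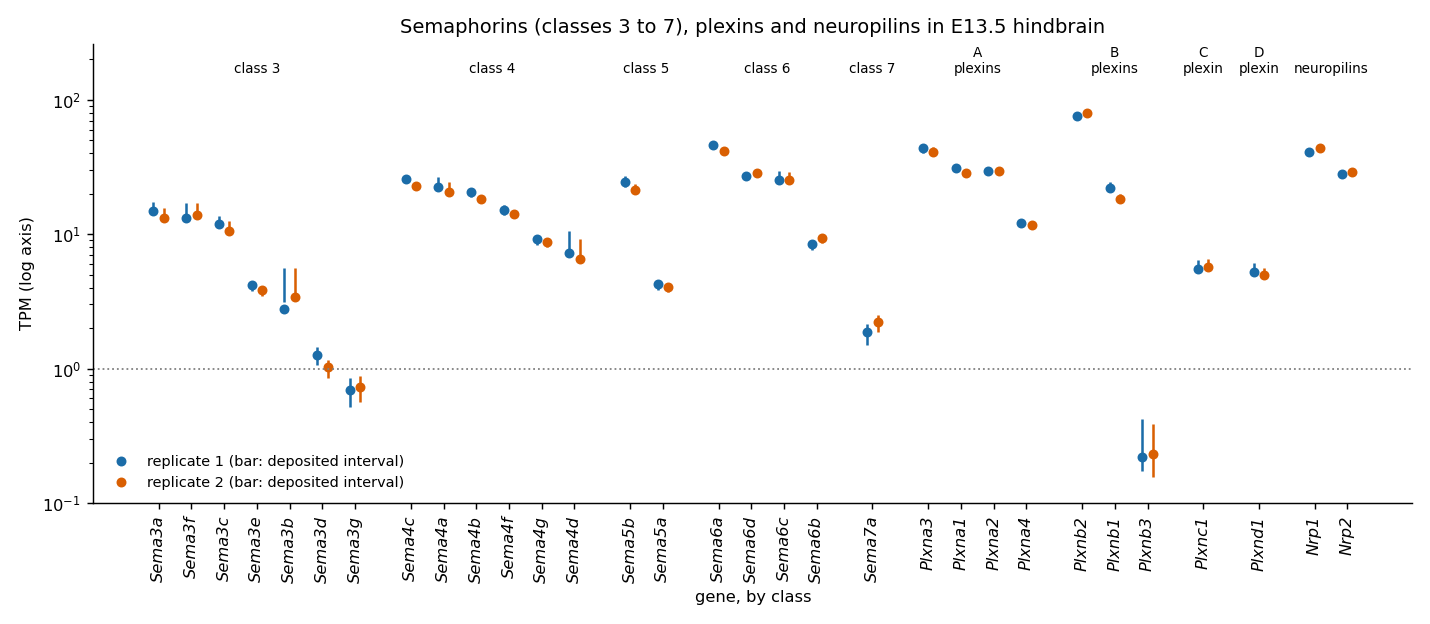
TPM of each gene (log axis) in replicate 1 and replicate 2, with the deposited interval of each value as a bar and the detection limit of 1 TPM as a dotted line. Plxnb2 stood highest at 75.7 and 80.2 TPM, and Sema3g and Plxnb3 lay below the limit in both libraries.

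The secreted class 3 semaphorins had the lowest summed level of the ligand classes with more than 2 genes. Their summed level was 48.9 TPM in replicate 1 and 46.7 TPM in replicate 2, and 6 of 7 were detected. Sema3a, the prototype collapse factor of growth cones, had 14.8 TPM on 1598 counts in replicate 1 and 13.3 TPM on 1675 counts in replicate 2. Sema3f, a repellent that acts mainly through Nrp2, had 13.3 TPM in replicate 1 and 13.8 TPM in replicate 2. Sema3c, known for its part in neural crest and heart outflow development, had 11.8 TPM in replicate 1 and 10.55 TPM in replicate 2. The deposited intervals of gene TPM of Sema3a and Sema3f overlapped in both libraries, whereas those of Sema3c lay below those of Sema3a in both. On coding transcripts Sema3f had 9.06 TPM in replicate 1 and 9.19 TPM in replicate 2, below Sema3a at 14.8 and 13.3. By counts, which are not per length, Sema3f, at 687 and 827, was below Sema3a and also below Sema3c, at 1075 and 1195.

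The other class 3 genes were several-fold lower. Sema3e, which binds Plxnd1 without a neuropilin, had 4.18 TPM in replicate 1 and 3.83 TPM in replicate 2. Sema3b had 2.80 TPM on 155 counts in replicate 1 and 3.44 TPM on 236 counts in replicate 2. Both of these lay clear of the detection limit, but both Sema3b values fell below their own deposited intervals, which surround a posterior mean; Sema4d was the other member of which this was true. Sema3d, a guidance cue of heart and vessel development, had 1.27 TPM on 169 counts in replicate 1 and 1.03 TPM on 161 counts in replicate 2. Sema3g, known from endothelium, had 0.69 TPM on 63 counts in replicate 1 and 0.73 TPM on 79 counts in replicate 2. Sema3d therefore stood just inside the limit and Sema3g just outside it, and their intervals overlapped in replicate 2 but not in replicate 1.

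Class 4 semaphorins were all detected and spanned a narrow range. Their sum was 100.4 TPM in replicate 1 and 91.5 TPM in replicate 2. Sema4c, a ligand of Plxnb2, was the highest of the class at 25.9 TPM in replicate 1 and 22.96 TPM in replicate 2. Sema4a had 22.3 TPM in replicate 1 and 20.6 TPM in replicate 2. Sema4b had 20.6 TPM in replicate 1 and 18.4 TPM in replicate 2. Sema4f had 15.1 TPM in replicate 1 and 14.2 TPM in replicate 2, and its intervals lay below those of Sema4b in both libraries. The remaining members were lower. Sema4g, also a Plxnb2 ligand in mouse cerebellum, had 9.17 TPM in replicate 1 and 8.80 TPM in replicate 2. Sema4d, the ligand of Plxnb1 first known from lymphocytes, had 7.23 TPM in replicate 1 and 6.5 TPM in replicate 2. The tables list Sema4d-204, a coding transcript that the newer annotation gives to Sema4d, under another gene identifier. With its 1.63 and 2.03 TPM, Sema4d would have 8.86 TPM in replicate 1 and 8.53 TPM in replicate 2.

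The transmembrane class 6 semaphorins had the highest sum of any ligand class, 107.5 TPM in replicate 1 and 104.7 TPM in replicate 2. Sema6a, a ligand of Plxna2 and Plxna4 that is needed for cerebellar granule cell migration in mouse, was the highest of all 20 semaphorins at 46.4 TPM in replicate 1 and 41.3 TPM in replicate 2. Sema6d, a ligand of Plxna1, had 27.25 TPM in replicate 1 and 28.75 TPM in replicate 2. Sema6c had 25.4 TPM in replicate 1 and 25.2 TPM in replicate 2. Sema6b, which shares the receptors of Sema6a, was the lowest of the class at 8.48 TPM in replicate 1 and 9.42 TPM in replicate 2. The order within the class by gene TPM was the same in both libraries, though the intervals of Sema6d and Sema6c were not separated.

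Classes 5 and 7 were small and uneven. Sema5b and Sema5a carry thrombospondin repeats and in mouse retina act through Plxna1 and Plxna3. Sema5b had 24.3 TPM in replicate 1 and 21.35 TPM in replicate 2, whereas Sema5a had 4.24 TPM in replicate 1 and 4.06 TPM in replicate 2. Sema7a, a lipid-anchored semaphorin that binds Plxnc1 and Itgb1, had 1.86 TPM on 123 counts in replicate 1 and 2.23 TPM on 174 counts in replicate 2. Sema5b was several-fold above its relative in TPM, and Sema7a was the lowest membrane-bound semaphorin. By counts, which are not per length, Sema5b led Sema5a by less, with 1559 against 937 in replicate 1 and 1710 against 1060 in replicate 2.

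Nrp1 was among the highest receptors, and Nrp2 stood in the middle of the 11. Nrp1, which binds Sema3a and VEGF, had 40.9 TPM on 4904 counts in replicate 1 and 44.1 TPM on 6248 counts in replicate 2. Nrp2, which binds Sema3f, had 28.2 TPM on 3162 counts in replicate 1 and 28.9 TPM on 3861 counts in replicate 2. Nrp1 was the higher neuropilin in both libraries, with 1 transcript in the table, while Nrp2 had 7.

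Nrp2 is known in a and b forms, which share most of the extracellular part and differ in the transmembrane and cytoplasmic end, because their transcripts use different last coding exons. Both forms were present at similar levels in TPM, which is per length. By counts, which are not per length, the largest a form transcript had 1019 in replicate 1 and 1819 in replicate 2. The largest b form transcript had 777 and 864. The 4 annotated transcripts that end at the distal stop codon, the a form, summed to 13.6 TPM in replicate 1 and to 14.9 TPM in replicate 2. The 2 transcripts that end at the proximal stop codon, the b form, summed to 12.3 TPM in replicate 1 and to 11.4 TPM in replicate 2. The a form thus held 52.5% of the coding Nrp2 level in replicate 1 and 56.6% in replicate 2. The forms end in the following bases, shown from the GENCODE M21 transcripts on GRCm38 (plus strand, 5′ to 3′) because they are what tells the forms apart, with the stop codon in capitals.
Nrp2 a form, chr1:62815545-62815637: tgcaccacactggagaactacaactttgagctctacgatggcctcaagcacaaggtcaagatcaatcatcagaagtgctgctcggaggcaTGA
Nrp2 b form, chr1:62795897-62795989: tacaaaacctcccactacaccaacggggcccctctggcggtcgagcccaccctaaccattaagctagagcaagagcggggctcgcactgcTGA
Aligned from the stop codon without gaps, the ends had the same base at 36 of 93 positions.

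Transcripts of the a form can include an optional exon of 51 bases, and both forms can carry an optional stretch of 15 bases at the end of the preceding shared exon. The 15 bases are in capitals after the 21 bases of that exon. The 51-base exon is in capitals throughout.
Optional stretch, chr1:62786281-62786316: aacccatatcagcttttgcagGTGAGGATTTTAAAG
Optional exon, chr1:62812534-62812584: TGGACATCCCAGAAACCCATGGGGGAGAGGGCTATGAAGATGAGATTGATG
Transcripts with the 15-base stretch summed to 11.85 TPM in replicate 1 and to 10.0 TPM in replicate 2, and coding transcripts without it to 14.1 TPM in replicate 1 and to 16.3 TPM in replicate 2. Within the a form, transcripts with the 51-base exon summed to 3.64 TPM in replicate 1 and to 2.21 TPM in replicate 2. Those without it summed to 9.99 TPM in replicate 1 and to 12.7 TPM in replicate 2. The longer versions of the a form were therefore the minor ones in both libraries, while most of the b form, at 9.13 TPM in replicate 1 and 8.60 TPM in replicate 2, carried the 15-base stretch.

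The leading Nrp2 transcript differed between the libraries. Nrp2-201, a b form with the stretch, carried 32.4% of the Nrp2 level in replicate 1 and 29.8% in replicate 2. Nrp2-204, an a form with neither insert, carried 26.5% in replicate 1 and 39.1% in replicate 2. Of the 24 detected members with more than 1 transcript, 23 had the same leading transcript in both libraries, and Nrp2 was the exception. The background for this count is 91.4% of detected genes with more than 1 transcript, so a count of 23 of 24 is near it. By counts, which are not divided by length, Nrp2-204 led in both libraries with 1019 counts in replicate 1 and 1819 in replicate 2, against 777 and 864 for Nrp2-201.

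**Figure D2:**
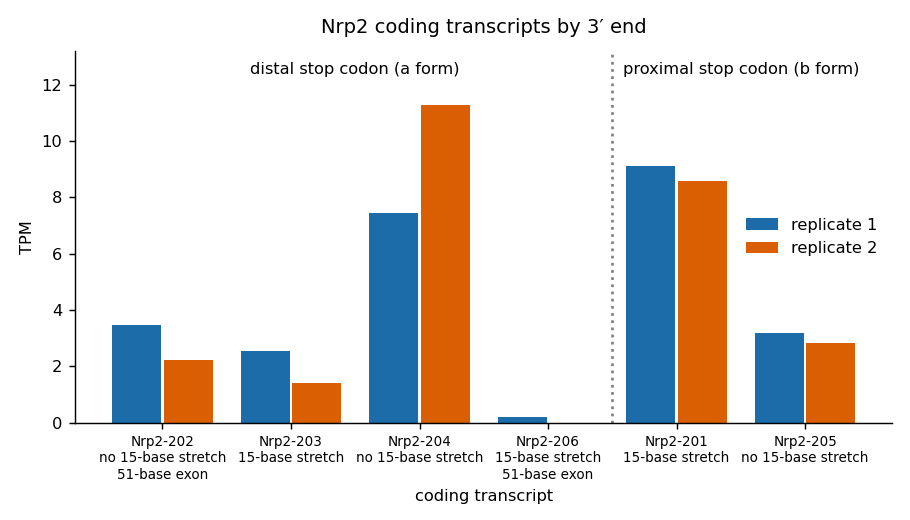
TPM of the 6 coding Nrp2 transcripts in replicate 1 and replicate 2 (bars from 0), grouped by stop codon, with the inserts each carries. Nrp2-204 had 7.46 TPM in replicate 1 and 11.3 in replicate 2, and Nrp2-201 had 9.13 and 8.60.

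The A plexins, the signalling partners of neuropilins and of class 6 semaphorins, were all detected and summed to 116 TPM in replicate 1 and to 111 TPM in replicate 2. Plxna3, on the X chromosome, had 43.8 TPM in replicate 1 and 41.2 TPM in replicate 2. Plxna1 had 30.95 TPM in replicate 1 and 28.5 TPM in replicate 2, and Plxna2 had 29.4 TPM in replicate 1 and 29.6 TPM in replicate 2. Plxna4 was the lowest at 12.2 TPM in replicate 1 and 11.75 TPM in replicate 2. Plxna3 stood apart from Plxna1 by its intervals in both libraries, whereas Plxna1 and Plxna2 did not differ beyond theirs. The lead of Plxna3 held for gene TPM alone. On coding transcripts Plxna3 had 22.7 TPM in replicate 1 and 20.65 TPM in replicate 2, below Plxna1 at 30.9 and 28.5 and Plxna2 at 25.5 and 26.05. By counts, too, Plxna3 was lower, with 3623 in replicate 1 and 3990 in replicate 2, against 5677 and 6211 for Plxna1 and 5968 and 7180 for Plxna2.

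The B plexins held both ends of the whole range. Plxnb2, the receptor of Sema4c and Sema4g that mouse granule cell precursors need, was the highest of all 31 genes at 75.7 TPM on 5497 counts in replicate 1 and 80.2 TPM on 7347 counts in replicate 2. Plxnb1, the receptor of Sema4d, had 22.2 TPM in replicate 1 and 18.3 TPM in replicate 2. Plxnb3 had 0.22 TPM on 23 counts in replicate 1 and 0.23 TPM on 24 counts in replicate 2. The mean gene TPM of Plxnb2 was 346-fold that of Plxnb3, its relative in the same subfamily, and the libraries were alike in this. The size of this ratio rests on the few Plxnb3 counts. On coding transcripts Plxnb3 had 0.12 TPM in replicate 1 and 0.04 TPM in replicate 2, beside 38.1 and 43.8 for Plxnb2. Plxnc1, the Sema7a receptor, had 5.53 TPM in replicate 1 and 5.72 TPM in replicate 2. Plxnd1, the Sema3e receptor known from vessels, had 5.26 TPM in replicate 1 and 4.95 TPM in replicate 2.

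Promoter windows, from 250 bases before to 50 after an annotated start, were at hand from RefSeq (GRCm38.p6) for 26 of the 31 genes, in 37 windows. The bases before the start are printed for the highest and the lowest member of the list, Plxnb2 and Plxnb3, 5′ to 3′ on the gene's strand, with GGGCGG or its complement CCGCCC in capitals. The Plxnb2 window is the one before the start of Plxnb2-202, the transcript with 37.2 TPM in replicate 1 and 42.4 TPM in replicate 2. Plxnb2-201, whose annotated start is a different one, had 0.90 TPM in replicate 1 and 1.39 TPM in replicate 2. The Plxnb3 window stops before the first base that GENCODE M21 places in a Plxnb3 exon.
Plxnb2, chr15:89180789-89181038, minus strand: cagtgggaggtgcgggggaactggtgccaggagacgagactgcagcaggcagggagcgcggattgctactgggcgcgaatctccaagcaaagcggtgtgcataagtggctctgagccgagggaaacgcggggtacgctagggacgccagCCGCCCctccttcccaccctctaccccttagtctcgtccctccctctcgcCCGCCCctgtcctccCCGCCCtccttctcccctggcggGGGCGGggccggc
Plxnb3, chrX:73756853-73757089, plus strand: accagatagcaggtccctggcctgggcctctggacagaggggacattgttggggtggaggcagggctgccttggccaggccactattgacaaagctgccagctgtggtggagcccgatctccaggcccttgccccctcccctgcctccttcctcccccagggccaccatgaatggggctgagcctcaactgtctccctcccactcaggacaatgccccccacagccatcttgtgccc
The Plxnb2 stretch held GGGCGG on either strand 4 times and 20 CpG dinucleotides in 250 bases, and the Plxnb3 stretch held 0 and 1 in 237 bases. Another Plxnb2 window, not printed, held 3 and 13 in 250 bases. These genes were picked by level, and whether such letters go with level over the members was not tested. Over the members' full 300-base windows, 27 of 37, or 73.0%, held GGGCGG on either strand, against 35.7% of all 32851 windows. TATAAA on either strand was in 0 of 37 member windows, against 13.6% of all. CCAAT on either strand was in 7 of 37, or 18.9%, against 37.4% of all, and the palindrome CACGTG in 3 of 37, or 8.11%, against 7.15% of all. The median number of CpG dinucleotides was 15 in member windows and 7 in all windows. In member windows it ran from 2, as in Sema3a, to 42, in Sema3c, genes of 14.05 and 11.2 mean TPM. The motifs were searched separately, so overlapping matches count for each. Several windows belong to the same gene, and a match of letters is not a binding site. Median GC content was 63.7% in member windows and 52.7% in all windows. The windows were not limited to detected genes or matched for GC content.

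Several members had a large share of their level on transcripts not annotated as protein coding, such as retained introns. At least 20% of the TPM lay on such transcripts in both libraries for 9 of the 29 detected members, or 31%, against 22.8% of all detected protein-coding genes. The median share was 9.75% in replicate 1 and 7.34% in replicate 2 for detected members, against 1.62% and 1.60% for all. For Plxnb2 it was 49.7% in replicate 1 and 45.4% in replicate 2, for Sema6c 49.3% and 44.7%, for Plxna3 48.1% and 49.9%, and for Sema6a 47.4% and 50.8%. The others were Sema5b, Sema4g, Sema3f, Sema4a and Sema6d, with lowest values of 22.6% in replicate 1 for Sema6d and 22.9% in replicate 2 for Sema4a. As shares of counts, which are not per length, the same transcripts held 10.2% and 8.73% of Plxnb2 in replicates 1 and 2, and 11.3% and 13.6% of Plxna3. By counts the shares of Sema6c, at 34.9% and 32.0%, Sema4g, at 33.6% and 25.8%, and Sema6a, at 26.0% and 28.8%, stayed above 20%.

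For Plxnb2, most of this share came from a short transcript. Plxnb2-205, a processed transcript of 841 nt at the 3′ end of the gene, had 33.1 TPM in each library on 507 counts in replicate 1 and 598 counts in replicate 2. Plxnb2-202, the coding transcript of 6377 nt, had 37.2 TPM on 4820 counts in replicate 1 and 42.4 TPM on 6492 counts in replicate 2. On coding transcripts alone, Plxnb2 had 38.1 TPM in replicate 1 and 43.8 TPM in replicate 2, just below Nrp1 at 40.9 and 44.1. Sema6a then had 24.4 TPM in replicate 1 and 20.3 TPM in replicate 2, and Plxna3 22.7 and 20.65. The top of the order by TPM thus depends on whether such transcripts are counted: Plxnb2 was first with them and Nrp1 without. By counts, which are not per length, Plxna2 was above Plxnb2 in replicate 1, at 5968 against 5497. In replicate 2 Plxna2 was below Plxnb2, at 7180 against 7347. Among semaphorins, Sema4c, at 25.0 TPM in replicate 1 and 22.7 TPM in replicate 2 on coding transcripts, then stood above Sema6a at 24.4 and 20.3. Sema6d, at 21.1 TPM in replicate 1 and 21.35 TPM in replicate 2, was below Sema6a in replicate 1 and above it in replicate 2. The class 4 sum on coding transcripts was 84.2 TPM in replicate 1 and 80.8 TPM in replicate 2, above the class 6 sum of 66.9 and 65.1 TPM, the reverse of the order by gene TPM.

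In 4 other members at least 2 transcripts each carried 20% or more of the level in both libraries. Sema4c divided between the coding transcripts Sema4c-201, at 39.6% in replicate 1 and 38.3% in replicate 2, Sema4c-208, at 22.7% and 20.3%, and Sema4c-203, at 21.96% and 28.1%. Sema4g had 50.6% in replicate 1 and 38.9% in replicate 2 on the coding Sema4g-201, and 33.2% and 25.2% on Sema4g-202, annotated as a target of nonsense-mediated decay. The coding Sema4g-203 carried 16.2% in replicate 1 and 35.9% in replicate 2, so the division within Sema4g differed between the libraries. In Sema4d, the leading Sema4d-201 carried 89.2% in replicate 1 and 57.7% in replicate 2. Sema5b had 47.96% in replicate 1 and 52.6% in replicate 2 on the coding Sema5b-201, and 23.2% and 22.1% on the retained intron Sema5b-204. Sema6a had 25.7% in replicate 1 and 28.3% in replicate 2 on the coding Sema6a-201, and 20.9% and 20.0% on the retained intron Sema6a-208.

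**Figure D3:**
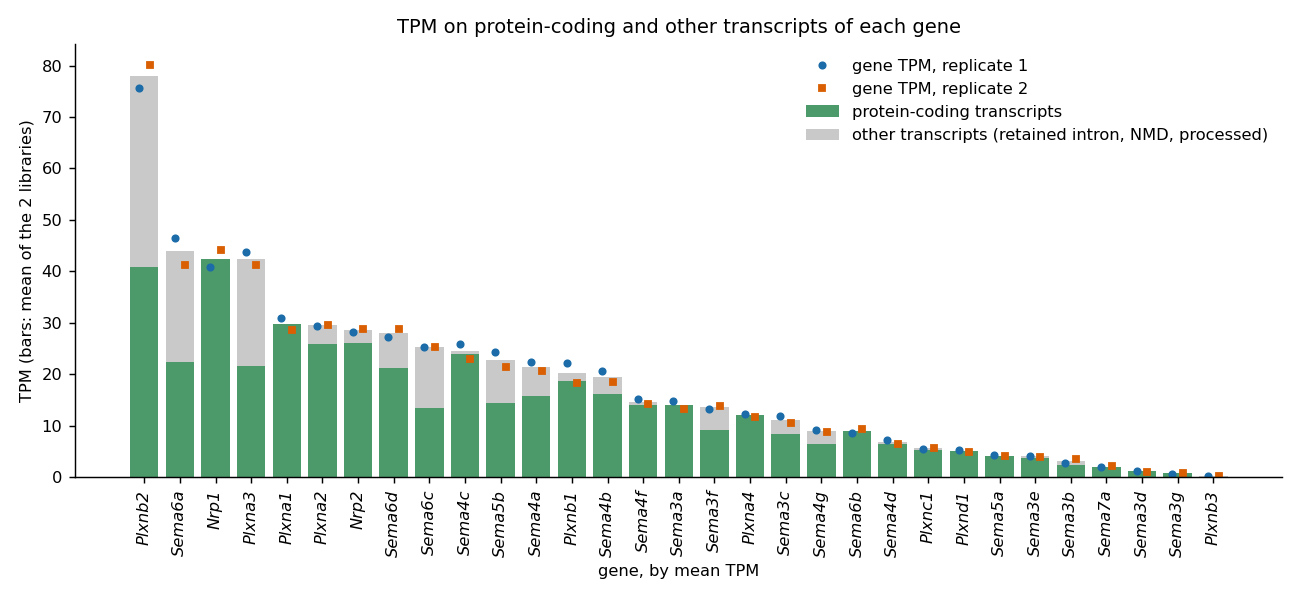
Mean TPM of the 2 libraries on protein-coding transcripts (lower part of each bar) and on other transcripts (upper part), with the gene TPM of replicate 1 and replicate 2 as points. The upper part stands for 44.7% or more of the gene TPM in each library for Plxnb2, Sema6a, Plxna3 and Sema6c, and Nrp1 has none.

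Ligands and receptors were of similar total level in TPM, and ligands were lower in counts. The 20 semaphorins summed to 287 TPM in replicate 1 and to 271 TPM in replicate 2, and the 11 receptors to 294 TPM in replicate 1 and to 293 TPM in replicate 2. The ratio of semaphorin to receptor TPM was 0.976 in replicate 1 and 0.922 in replicate 2. In counts, which are not per length, semaphorins summed to 22453 in replicate 1 and 25392 in replicate 2, and receptors to 36777 and 43580. Per gene, semaphorins were lower: the median log2(TPM + 1) of semaphorins minus that of receptors was -1.15 ± 0.065 (SD, n = 2 libraries), with -1.11 in replicate 1 and -1.20 in replicate 2. The median of class 3 lay below that of classes 4 to 7, by a difference of -2.03 ± 0.038 (SD, n = 2), with -2.06 in replicate 1 and -2.01 in replicate 2. The median of the neuropilins lay above that of the plexins, by 0.76 ± 0.24 (SD, n = 2), with 0.59 in replicate 1 and 0.93 in replicate 2. All 3 directions were the same in both libraries. The genes are not replicates of a class, so no test over genes was made, and the sizes, though not the directions, depended on the scale.

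In the order by mean TPM, most neighbours could not be separated. Of 30 neighbouring pairs, 10 had deposited intervals that were disjoint in both libraries. Plxnb2, at 78.0 ± 3.17 TPM, stood above Sema6a, at 43.9 ± 3.59 TPM (SD, n = 2). Sema6a, Nrp1 and Plxna3 followed without separation at 43.9 to 42.5 TPM. From Plxna1, at 29.7 ± 1.72 TPM, down to Sema4b, at 19.5 ± 1.55 TPM (SD, n = 2), no neighbouring pair was separated. The next breaks lay below Sema4b, Sema3f, Sema3c, Sema4d, Plxnd1, Sema3b, Sema7a and Sema3g. The breaks below Sema4d and Sema3b rest on intervals that do not hold the TPM used for the order. By posterior mean TPM, Sema3b, at 4.33 in replicate 1 and 4.58 in replicate 2, stood above Sema3e, at 4.09 and 3.77.

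Known ligands and receptors can be set side by side. Sema3a averaged 14.05 ± 1.07 TPM, beside 42.5 ± 2.28 TPM for its receptor Nrp1 (SD, n = 2). Sema3f averaged 13.6 ± 0.38 TPM, beside 28.5 ± 0.47 TPM for Nrp2 (SD, n = 2). In both pairs the ligand was the lower gene. The same held for Sema3e, at 4.01 ± 0.25 TPM, beside Plxnd1, at 5.11 ± 0.22 TPM (SD, n = 2). Sema4c averaged 24.4 ± 2.09 TPM, beside 78.0 ± 3.17 TPM for Plxnb2, and Sema4d 6.87 ± 0.52 TPM, beside 20.2 ± 2.74 TPM for Plxnb1 (SD, n = 2). Sema7a averaged 2.05 ± 0.26 TPM, beside 5.63 ± 0.13 TPM for Plxnc1 (SD, n = 2). Sema6d and its receptor Plxna1 were close by gene TPM, at 28.0 ± 1.06 and 29.7 ± 1.72 TPM (SD, n = 2). Here the ligand was lower in replicate 1, at 27.25 against 30.95 TPM, and just higher in replicate 2, at 28.75 against 28.5 TPM. Counted on coding transcripts only, Sema6d was lower in both libraries, at 21.1 and 21.35 TPM against 30.9 and 28.5 TPM for Plxna1. Sema6a was an exception, at 43.9 ± 3.59 TPM, beside 29.5 ± 0.12 TPM for Plxna2 and 11.98 ± 0.32 TPM for Plxna4 (SD, n = 2). On coding transcripts alone this turned round for Plxna2, with Sema6a at 22.4 ± 2.88 TPM and Plxna2 at 25.8 ± 0.36 TPM (SD, n = 2). These pairs were chosen from knowledge of binding with levels in view, and RNA levels of a tissue do not show which cells hold ligand and receptor.

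The wider pathway was expressed as well. Of 13 co-receptors and partners 12 were detected. Itgb1, an integrin chain, had 77.97 TPM in replicate 1 and 81.9 TPM in replicate 2. L1cam and Chl1, adhesion molecules that associate with neuropilins, had 68.5 and 57.3 TPM in replicate 1 and 62.3 and 54.5 TPM in replicate 2. Timd2, a Sema4a receptor of T cells, had 2 counts in each library. Of 5 VEGF family ligands, which bind neuropilins or their partner receptors, 4 were detected. Vegfb led with 27.3 TPM in replicate 1 and 28.4 TPM in replicate 2. Pgf had 6.86 TPM in replicate 1 and 5.61 TPM in replicate 2, and Vegfc 2.77 and 3.29. Vegfd was below the limit with 0.60 TPM in replicate 1 and 0.42 TPM in replicate 2. Vegfb was thus close to Nrp2 in level, and the other VEGF ligands were below both neuropilins.

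Downstream genes reached the highest levels of the pathway. Of 27 cytoplasmic effectors 26 were detected, with a median of 55.2 TPM in replicate 1 and 54.05 TPM in replicate 2. Cfl1, the actin-severing protein cofilin, had 2454 TPM in replicate 1 and 2438 TPM in replicate 2. The GTPases Rac1 and Rhoa had 236 and 226 TPM in replicate 1 and 239 and 232 TPM in replicate 2. Mical2, an actin oxidase, missed the limit with 0.89 TPM in replicate 1 and reached 1.33 TPM in replicate 2. All 5 collapsin response mediators, named for their part in the response to Sema3a, were detected. Dpysl2 had 1038 TPM in replicate 1 and 1018 TPM in replicate 2, Dpysl3 868 and 848, and Crmp1 628 and 595. The lowest, Dpysl5, had 162 TPM in replicate 1 and 146 TPM in replicate 2. Every gene of that list was above every semaphorin, plexin and neuropilin in both libraries.

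**Figure D4:**
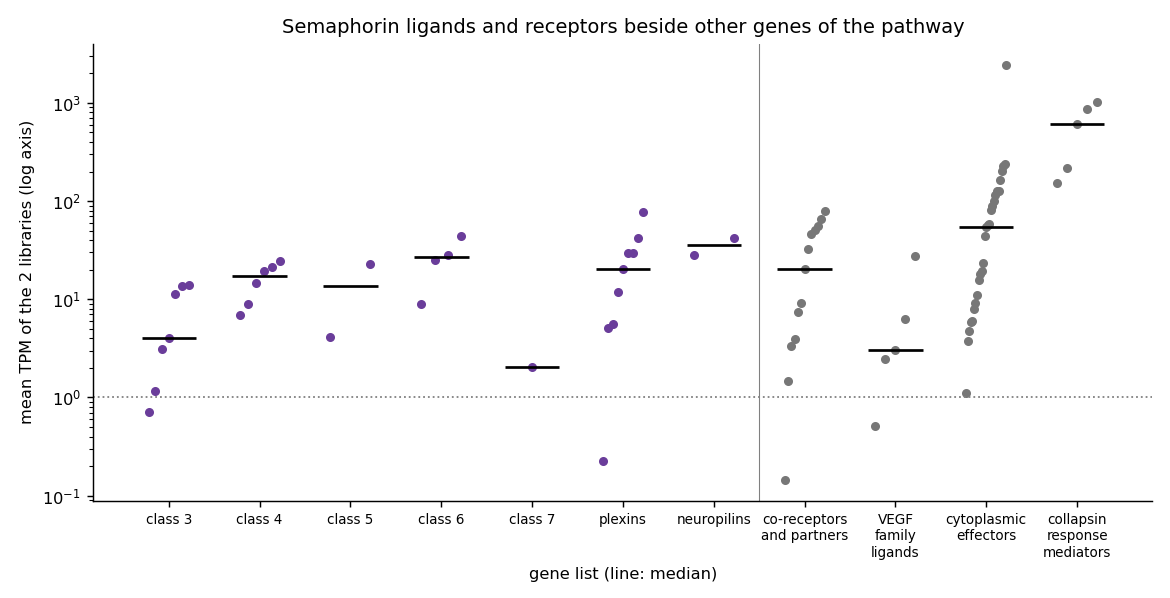
Mean TPM of the 2 libraries (log axis) for each gene of the semaphorin classes, plexins and neuropilins, and of 4 lists of other pathway genes; the line is the median of a list and the dotted line 1 TPM. The 5 collapsin response mediators lie above all 31 family members.

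The libraries differed little in these genes. Counts of replicate 1 were set against those of replicate 2 by a two-sided exact binomial test with Benjamini-Hochberg adjustment over 19687 genes, which compares these libraries against counting error and not conditions. At an adjusted p under 0.05, 7 of the 31 members, or 22.6%, differed, against 12.6% of all genes tested. By direction, 5 of the 31 members were higher in replicate 1, against 5.49% of all genes, and 2 of the 31 were lower, against 7.07%. Among genes with 1000 or more counts in the pair, where the test sees smaller differences, 7 of 26 members, or 26.9%, differed, against 16.5% of all. The median log2 ratio of replicate 1 over replicate 2 was 0.04 over the members and -0.004 over all genes.

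The differences were small. Plxnb2 was lower in replicate 1, with a log2 ratio of -0.20 (95% interval -0.25 to -0.15, exact binomial test, adjusted p = 9.35e-13). Nrp1 was likewise lower in replicate 1, with -0.13 (interval -0.18 to -0.08, adjusted p = 7.44e-05 by the exact test). The genes higher in replicate 1 had log2 ratios of 0.17 for Plxnb1, 0.16 for Sema4c, 0.15 for Sema3a, 0.11 for Sema6a and 0.09 for Plxna1. Their adjusted p-values from the exact test ran from 6.68e-05 for Plxnb1 to 0.0268 for Sema3a. At an unadjusted p under 0.05 there were 11 members. The share of all genes at that level was not computed, so this count has no background. The widest difference was that of Sema3b, 1.31-fold lower in replicate 1, which did not pass (adjusted p = 0.0682, exact test). No member differed by 2-fold or more. Of the other pathway genes, 0 co-receptors and partners were higher in replicate 1 and 3 of 13 were lower, namely Itgb1, Cntn2 and Erbb2. Of the 27 effectors, 2 were higher, Limk2 and Arhgef12, and 4 were lower, Rnd3, Cdk5r1, Rap1a and Rras. Of the 5 collapsin response mediators, Crmp1 and Dpysl5 were higher and 0 were lower, and none of the VEGF ligands passed the test in either direction.

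The deposited intervals, which also hold the uncertainty of assigning reads to transcripts, gave fewer differences. They were disjoint between the libraries for 4 of 31 members, or 12.9%, against 8.07% of all genes. Sema6a, Plxna1 and Plxnb1, 3 of the 31 members, were higher in replicate 1, against 4.21% of all genes. Nrp1, 1 of the 31, was lower, against 3.86%. The intervals of Plxnb2 overlapped.

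**Figure D5:**
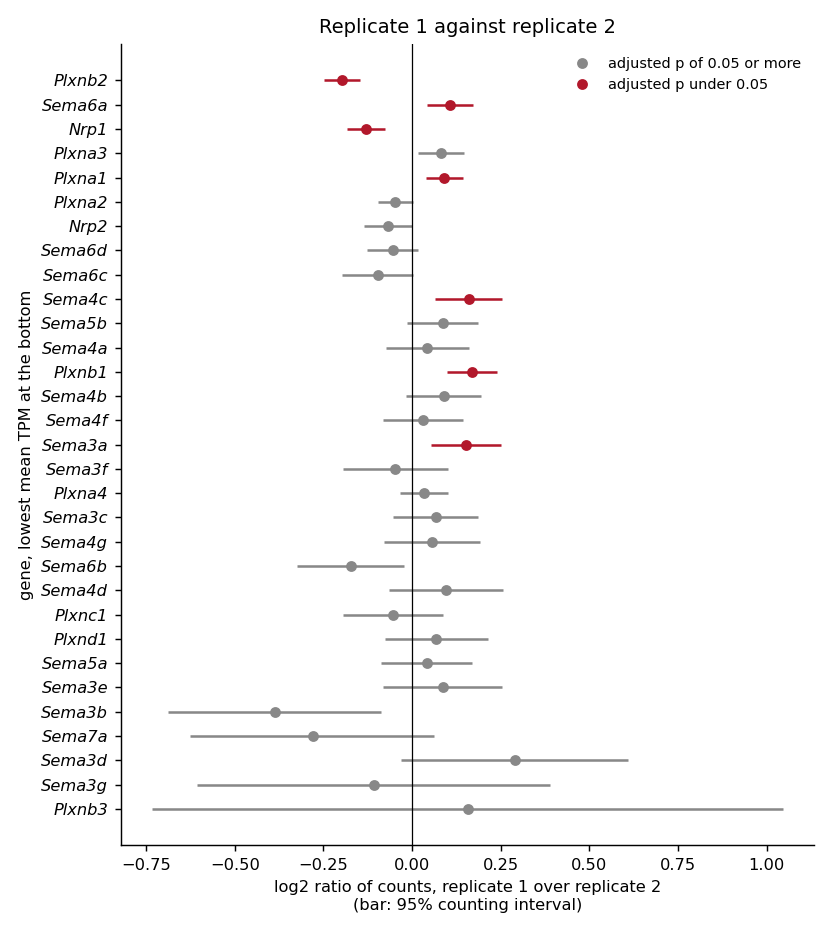
Log2 ratio of counts of replicate 1 over replicate 2 for each gene, with the 95% counting interval as a bar and genes of an adjusted p under 0.05 in red. The 7 red genes lie between -0.20 for Plxnb2 and 0.17 for Plxnb1, and the widest bars belong to Plxnb3, Sema3g and Sema7a, which had few counts.

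Markers of some other cell types also moved between the libraries. All 8 choroid plexus markers were detected, with a sum of 662 TPM in replicate 1 and 1225 TPM in replicate 2, and 7 were lower in replicate 1. Ttr held most of that sum, at 533 TPM in replicate 1 and 1022 TPM in replicate 2. The 8 markers of meninges and mesenchyme summed to 748 TPM in replicate 1 and to 579 TPM in replicate 2, and 4 were higher in replicate 1. The sum over 8 neural progenitor markers was 2758 TPM in replicate 1 and 3028 TPM in replicate 2, with 6 lower and 2 higher, and over 8 neuron markers it was 4121 and 3954 TPM, with 1 lower and 4 higher. Fabp7 held most of the progenitor sum, at 1787 TPM in replicate 1 and 2042 TPM in replicate 2, and the 2 higher progenitor markers were Hes5 and Nes. Microglia summed to 112 and 134 TPM, endothelium to 179 and 185 TPM, the oligodendrocyte lineage to 102 and 96.7 TPM, sensory ganglion to 189 and 201 TPM, motor neurons to 42.3 and 34.6 TPM and skeletal muscle to 52.9 and 61.3 TPM in replicates 1 and 2. Of the motor neuron markers, Lhx3 had 12.5 TPM in replicate 1 and 4.26 TPM in replicate 2, while the median log2 ratio of the list was -0.07. No marker of any list was at 0 in both libraries. All 8 hindbrain factors were detected, with Meis2 and En1 higher in replicate 1 and Hoxb5 and Hoxb2 lower by the exact test. Of 8 forebrain factors 1 was detected, Lhx2. The part of these cell types in the differences of the 7 members was not tested.

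The members lie on 17 chromosomes, and some are neighbours. On chromosome 5, Sema3d, Sema3a, Sema3e and Sema3c follow each other on the same strand, with gaps of 536 kb, 423 kb and 3.32 Mb holding 0, 1 and 14 protein-coding genes. Their mean levels were 1.15, 14.05, 4.01 and 11.2 TPM, so neighbours in this row differed by several-fold. On chromosome 9, Sema3b and Sema3f are 72.3 kb apart, at 3.12 and 13.6 TPM. On the X chromosome, Plxnb3 and Plxna3 are 557 kb apart, at 0.225 and 42.5 TPM. Genes on the opposite strand overlap 12 members, 9 of them with such a gene in the tables, and none of those exceeded 1.44 TPM in either library. As the strand setting of the counting was not given, reads of a member and of its antisense partner may not be separable.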

How the data were processed

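Total RNA libraries were read from the gene and transcript tables that the authors deposited per library. The expected counts (estimated, not whole numbers), the TPM, the posterior mean TPM and the FPKM are the authors' values; TPM covers all rows, spike-ins included. The authors also deposited the bounds of a credibility interval (treated as a score, its level not stated) and the percent of each gene carried by each transcript. The assembly was mm10 with GENCODE M4, per the notes deposited beside the files. Strandedness, aligner, counting program and versions were not given in the sources used here. Names, types and positions came from GENCODE M21 (GRCm38, the same build) by identifier without version; 42462 of 43346 Ensembl genes and 184 of the members' 185 transcripts matched, and the unmatched transcript was treated as not coding.

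Counts were rounded, scaled by TMM with edgeR 4.0.16 (R 4.3.3) and compared between the libraries by a two-sided exact binomial test in SciPy 1.17.1. Genes with 10 or more counts over both libraries entered, and p-values were adjusted by Benjamini-Hochberg with a threshold of 0.05. A quasi-likelihood test needs a contrast, which 1 group does not give. DESeq2 1.42.0 gave alternative size factors. These p-values and intervals cover counting error only; reads lacking molecular identifiers are not independent, and the spread between these samples may be technical. The test was checked on simulated counts with counting error only and with changes larger than those of the members. That check does not cover spread between samples or differences as small as those reported. Class levels were medians of log2(TPM + 1), which understates differences of low genes.

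The members and gene lists were chosen with earlier results of these data known. All 31 members are named, with the 3 highest genes and the lowest of each pathway list, and transcripts that share a gene at 20% or more in both libraries or whose lead differs. Cell type lists are given as sums, with a few of their genes named.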

Additional observations from a re-analysis of the deposited data

How the results depend on the processing

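No paired analysis was possible because the 2 libraries form 1 group and no groups share replicate numbers. None of the 3 class differences changed sign under any alternative run. On protein-coding transcripts only, the class 4 and class 6 sums, Plxnb2 and Nrp1, and Plxna3 and both Plxna1 and Plxna2 changed places. So, among others, did Sema6a and Plxna2, and Sema6a and Sema4c, while Sema6d passed Sema6a in replicate 2 only. The difference of semaphorins minus receptors (-1.15) was -1.06 with detected members only, -1.03 with the posterior mean TPM, -1.70 with CPM, which is not per length, and -0.74 with means in place of medians. Class 3 minus classes 4 to 7 (-2.03) was -2.26 with a pseudocount of 0.1, -1.39 with detected members only, -1.91 with FPKM, -1.88 with the posterior mean TPM, -1.07 with CPM, -1.38 with means and -1.68 on protein-coding transcripts only, an alternative chosen after seeing the data. Neuropilins minus plexins (0.76) was 0.51 with detected members only, 0.35 with CPM and 1.24 with means. The cause of these shifts was not tested. Leaving out each library in turn gave 29 detected members both times, -1.20 to -1.11 for semaphorins minus receptors, -2.06 to -2.01 for class 3 minus classes 4 to 7, and 0.59 to 0.93 for neuropilins minus plexins. Detected members ranged from 23 at a minimum of 5 TPM to 30 at 0.5 TPM. The same 7 members differed between the libraries under DESeq2 size factors, total counts and filters of 1 or 100 counts, and disjoint intervals numbered 3 to 4. Separated neighbours in the order numbered 8 to 10, and the same leading transcript was found for 24 of 24 members by counts, 20 of 21 at 5 TPM or more and 23 of 25 with any count. Depth limits the lowest genes: Plxnb3, on 23 and 24 counts, had an interval of the log2 ratio from -0.73 to 1.05.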
